A study of Homo sapiens with 12 samples.

Results

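Transcript levels of 10 genes of the TRIM28 corepressor and of heterochromatin were followed in HT-29, a line derived from a human colorectal adenocarcinoma. The genes are TRIM28, SETDB1, ATF7IP, CBX1, CBX3, CBX5, CHD3, CHD4, UHRF1 and DNMT1. They were picked by symbol, 1 row each, from a table of 19128 symbols in FPKM, fragments scaled to transcript length and to library depth, and all 10 were among the 10364 genes that reached a mean of 1 FPKM in at least 1 group. The second of 2 experiments had 8 libraries, 2 in each of 4 groups: shMLKL cells with TBZ for 5 h, shMLKL cells with DMSO, shGFP cells with TBZ for 5 h, and shGFP cells with DMSO. TBZ is TNFα at 20 ng/mL with the SMAC mimetic BV6 at 2 µM and the caspase inhibitor zVAD-fmk at 30 µM. The concentrations are stated for the first experiment. DMSO is the solvent control. In the shMLKL cells MLKL, which encodes the membrane-permeabilising effector of necroptosis, was knocked down with a lentivirus, and the shGFP cells, named for a hairpin against GFP, are labelled as having no gene knocked down. The first experiment had 4 single libraries, of shMLKL cells with TBZ for 12 h, shMLKL cells with DMSO, parental cells with TBZ for 4 h and parental cells with DMSO. The labels leave unsaid whether paired libraries were grown separately, which makes every p-value one about library spread only, and each line is 1 lentiviral line with no second hairpin.

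TRIM28, also called KAP1, is a scaffold that KRAB zinc finger proteins bring to DNA. It recruits the histone H3 lysine 9 methyltransferase SETDB1 with its cofactor ATF7IP, the HP1 proteins that bind methylated lysine 9 (CBX5 encodes HP1 alpha, CBX1 HP1 beta and CBX3 HP1 gamma), and the chromatin remodellers CHD3 and CHD4 of the NuRD deacetylase complex. UHRF1 reads hemimethylated DNA and lysine 9 methylation behind the replication fork and brings DNMT1, the maintenance DNA methyltransferase, to it. In epithelial tumour lines this machinery is known for silencing endogenous retroviruses and germline genes.

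Estimated from the smallest FPKM steps, each library held between 82.9% and 100.0% of the depth of the deepest one. The lowest were the shMLKL TBZ libraries, at 84.7% and 82.9%. In the shMLKL libraries 9606 to 9638 genes reached 1 FPKM, and in the shGFP libraries 9796 to 10047 did. MLKL had 0.523 FPKM in shMLKL cells and 2.00 FPKM in shGFP cells under TBZ (log2 difference -0.99, adjusted p = 0.000152). Under DMSO it had 0.575 FPKM in shMLKL cells and 3.92 FPKM in shGFP cells (log2 difference -1.64, adjusted p = 9.87e-06). Of the colon epithelium markers, EPCAM lay between 313 and 393 FPKM and CDH1 between 80.5 and 93.0 FPKM in every library. KRT20 lay between 86.1 and 234 FPKM and LGALS4 between 78.5 and 164 FPKM. VIL1 was at 5.72 to 20.6 FPKM and CEACAM5 at 0.795 to 2.88 FPKM, while the intestinal factors CDX1 and CDX2 stayed under 0.21 FPKM. KRT8 and KRT18 were listed at 0 in all libraries but 1 shMLKL DMSO library, which had 694 and 535 FPKM, so these zeros can be failed estimates and say nothing of absent expression. Of 7 leukocyte markers 3 reached 1 FPKM in some library: LYZ, which encodes lysozyme, at 521 to 658 FPKM, CD68 at 4.18 to 5.30 FPKM and CD14 at 0.0813 to 1.38 FPKM. The defining marker PTPRC did not exceed 0.0609 FPKM, and CD3E was at 0 throughout. The sum of the 7 was 604 to 644 FPKM in shMLKL cells with TBZ, against 612 to 663 FPKM with DMSO, and 527 to 529 FPKM in shGFP cells with TBZ, against 606 to 613 FPKM with DMSO. No marker of fibroblasts, endothelium, kidney or liver reached 1 FPKM in any library. Differences below are of log2(FPKM + 1), tested with limma across all 10364 genes, and a gene is called where p, adjusted by Benjamini and Hochberg over those genes, is under 0.05.

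Under TBZ UHRF1 had the largest fall of the 10 genes in shGFP cells, and in shMLKL cells too unless TBZ library 2 was left out. SETDB1, CBX1, CBX3 and CHD3 fell in both lines, ATF7IP and CBX5 were called lower in shGFP cells, and TRIM28 and CHD4 were called higher in shMLKL cells. DNMT1 was called in neither line. In shMLKL cells 5 of the 10 genes fell and 2 rose, where 17.6% of all genes tested were called lower, 20.0% higher and 37.5% in either direction. Their median difference was -0.07, against -0.00 over all genes tested. In shGFP cells 7 fell and 0 rose, where 37.3% of all genes were called lower and 56.4% in either direction. There the median was -0.43 for the 10 genes and -0.12 for all genes tested. With the library medians set equal, 44.5% of the called genes in shGFP cells were higher in place of 33.9%, and the 7 falls were still called. In bulk RNA a lower level cannot be told apart between fewer cells carrying a transcript and less of it in each cell.

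**Figure D1:**
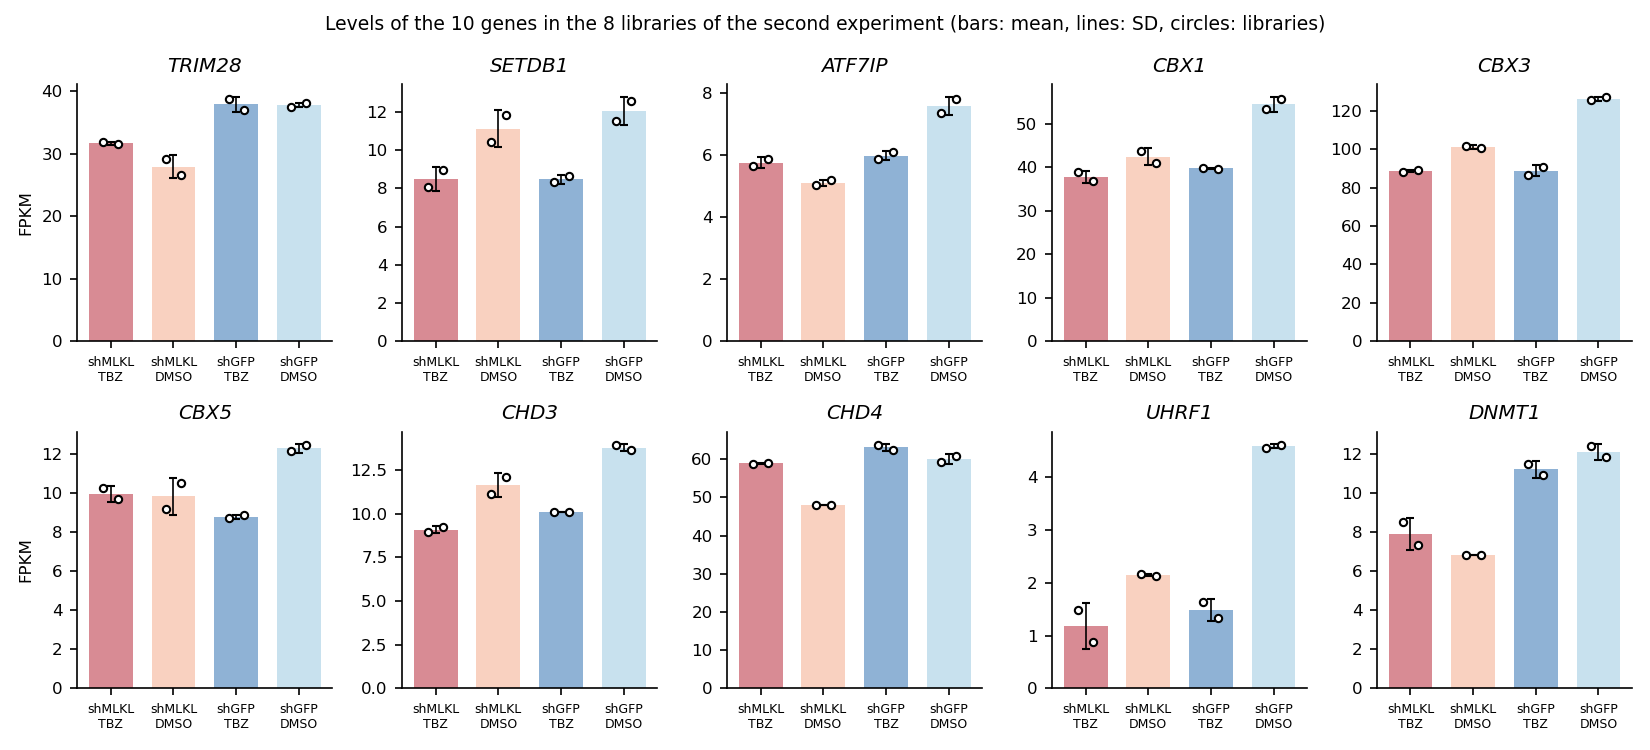
FPKM of each of the 10 genes in the second experiment, with 1 panel per gene and its own axis from 0. Bars are group means of 2 libraries, lines the SD and circles the libraries. UHRF1 was at 1.34 and 1.63 FPKM in shGFP cells with TBZ against 4.56 and 4.62 FPKM with DMSO, whereas TRIM28 was between 37.1 and 38.8 FPKM in all 4 shGFP libraries.

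TRIM28, the scaffold, had 31.9 and 31.5 FPKM in shMLKL cells with TBZ, against 29.2 and 26.7 FPKM with DMSO. Both TBZ libraries were above both DMSO libraries, and the rise of 0.18 (SE 0.05) was called (adjusted p = 0.0252). That call was lost with quantile normalization (0.10, adjusted p = 0.159), with the spread taken from the 4 shMLKL libraries alone (adjusted p = 0.0706), and without shMLKL DMSO library 2 (0.11, adjusted p = 0.116), shMLKL TBZ library 1 (0.17, adjusted p = 0.0938) or shMLKL TBZ library 2 (0.19, adjusted p = 0.0768). In shGFP cells TRIM28 had 38.8 and 37.1 FPKM with TBZ, against 37.6 and 38.1 FPKM with DMSO. Those libraries overlapped, and the difference was 0.00 with a 95% interval of -0.11 to 0.12 (adjusted p = 0.950), so a fall of the size seen for the HP1 genes there lies outside it.

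SETDB1, the lysine 9 methyltransferase, had 8.07 and 8.96 FPKM in shMLKL cells with TBZ, against 10.5 and 11.8 FPKM with DMSO. In shGFP cells it had 8.31 and 8.64 FPKM with TBZ, against 11.5 and 12.6 FPKM with DMSO. The TBZ and DMSO libraries did not overlap in either line, and SETDB1 fell by 0.35 in shMLKL cells (SE 0.08, adjusted p = 0.00942) and by 0.46 in shGFP cells (SE 0.08, adjusted p = 0.00166). The fall in shMLKL cells was not called without shMLKL DMSO library 2 (-0.27, adjusted p = 0.0583) or shMLKL TBZ library 1 (-0.28, adjusted p = 0.0564). The difference between the lines in the TBZ effect was 0.11, with an interval of -0.14 to 0.36.

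ATF7IP, the cofactor that keeps SETDB1 in the nucleus, had 5.63 and 5.87 FPKM in shMLKL cells with TBZ, against 5.04 and 5.18 FPKM with DMSO, a difference of 0.14 that was not called (adjusted p = 0.0843). In shGFP cells it had 5.86 and 6.08 FPKM with TBZ, against 7.36 and 7.79 FPKM with DMSO, and fell by 0.30 (SE 0.06, adjusted p = 0.00329). The values of both TBZ groups thus lay close together, and it was the DMSO groups that stood apart. SETDB1 FPKM was 1.43 and 1.52 times ATF7IP FPKM in shMLKL cells with TBZ, against 2.08 and 2.29 times with DMSO. In shGFP cells it was 1.42 times in both TBZ libraries, against 1.57 and 1.62 times with DMSO.

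The HP1 genes fell together in shGFP cells. CBX3, which encodes HP1 gamma and had the highest FPKM of the 10 genes, had 88.3 and 89.2 FPKM in shMLKL cells with TBZ, against 102 and 101 FPKM with DMSO. Its levels in shGFP cells were 86.8 and 90.8 FPKM with TBZ, against 126 and 127 FPKM with DMSO. It fell by 0.19 in shMLKL cells (SE 0.03, adjusted p = 0.00353) and by 0.51 in shGFP cells (SE 0.03, adjusted p = 1.33e-05), and the TBZ libraries of the 2 lines overlapped.

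CBX1, which encodes HP1 beta, had 38.8 and 36.9 FPKM in shMLKL cells with TBZ, against 43.8 and 41.1 FPKM with DMSO. Its levels in shGFP cells were 39.9 and 39.6 FPKM with TBZ, against 53.3 and 55.7 FPKM with DMSO. It fell by 0.16 in shMLKL cells (SE 0.05, adjusted p = 0.0275) and by 0.45 in shGFP cells (SE 0.05, adjusted p = 0.000148). The call in shMLKL cells was lost without shMLKL DMSO library 1 (-0.12, adjusted p = 0.145) or shMLKL TBZ library 2 (-0.12, adjusted p = 0.136), and with the spread of the shMLKL libraries alone (adjusted p = 0.0711).

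CBX5, which encodes HP1 alpha, had 10.3 and 9.68 FPKM in shMLKL cells with TBZ, against 9.18 and 10.5 FPKM with DMSO. Those libraries overlapped, and the difference of 0.02, with an interval of -0.14 to 0.17, was not called. In shGFP cells CBX5 had 8.72 and 8.88 FPKM with TBZ, against 12.1 and 12.5 FPKM with DMSO, and fell by 0.44 (SE 0.07, adjusted p = 0.00101). The sum of the 3 HP1 genes was 137 and 136 FPKM in shMLKL cells with TBZ, against 155 and 152 FPKM with DMSO, and 135 and 139 FPKM in shGFP cells with TBZ, against 191 and 195 FPKM with DMSO. Across the 8 libraries CBX3 made up 64.1% to 66.1%, CBX1 27.0% to 29.4% and CBX5 5.93% to 7.46% of it. The CBX5 share in shMLKL cells was 7.46% and 7.13% with TBZ, against 5.93% and 6.90% with DMSO. In shGFP cells it was 6.45% and 6.37% with TBZ, against 6.35% and 6.38% with DMSO. CBX1, CBX3 and CBX5 have 5, 9 and 1 pseudogenes of their name in GENCODE 29, and the other 7 genes have none named after them. Reads shared with such copies could make the HP1 levels less certain, which was not tested.

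**Figure D2:**
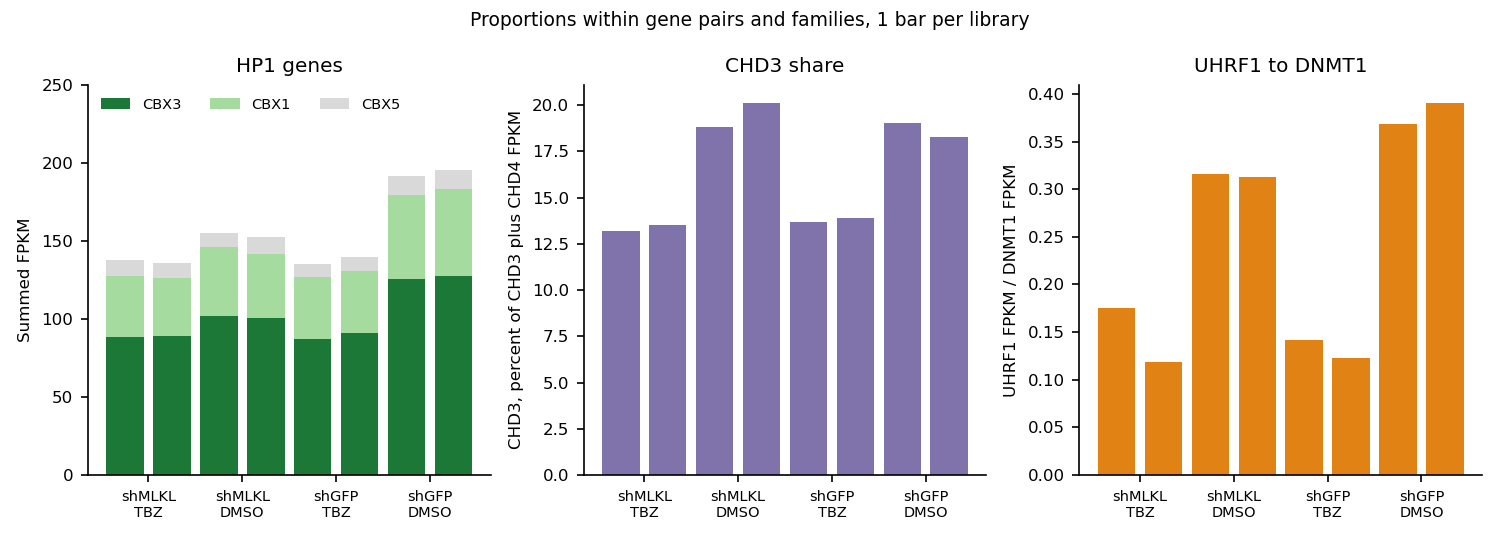
Proportions in the 8 libraries, 1 bar per library, with the shMLKL and then the shGFP groups from left to right, TBZ before DMSO. The left panel stacks the FPKM of CBX3, CBX1 and CBX5, the middle panel gives CHD3 as a percent of CHD3 plus CHD4, and the right panel gives UHRF1 FPKM over DNMT1 FPKM. The HP1 sum was 135 and 139 FPKM in shGFP cells with TBZ against 191 and 195 FPKM with DMSO, and the CHD3 share and the UHRF1 ratio were lower with TBZ in both lines.

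The NuRD remodellers parted. CHD3 had 8.94 and 9.22 FPKM in shMLKL cells with TBZ, against 11.1 and 12.1 FPKM with DMSO, and 10.1 FPKM in both shGFP libraries with TBZ, against 13.9 and 13.6 FPKM with DMSO. It fell by 0.32 in shMLKL cells (SE 0.05, adjusted p = 0.00226) and by 0.42 in shGFP cells (SE 0.05, adjusted p = 0.000399). CHD4, its paralog, had 58.8 and 59.1 FPKM in shMLKL cells with TBZ, against 48.0 and 48.1 FPKM with DMSO. In shGFP cells CHD4 had 63.7 and 62.5 FPKM with TBZ, against 59.2 and 60.9 FPKM with DMSO.

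CHD4 rose by 0.29 in shMLKL cells (SE 0.03, adjusted p = 0.000367), and its difference of 0.07 in shGFP cells (adjusted p = 0.0931) was called only with library medians set equal (0.14, adjusted p = 0.0124). CHD3 made up 13.2% and 13.5% of the CHD3 and CHD4 FPKM in shMLKL cells with TBZ, against 18.8% and 20.1% with DMSO. The share in shGFP cells was 13.7% and 13.9% with TBZ, against 19.1% and 18.3% with DMSO. No TBZ library reached the share of any DMSO library.

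UHRF1, the reader of hemimethylated DNA, was the lowest of the 10 genes. It had 1.49 and 0.873 FPKM in shMLKL cells with TBZ, against 2.17 and 2.13 FPKM with DMSO. That fall of 0.54 (SE 0.13) was called (adjusted p = 0.0150), but not without shMLKL DMSO library 1 (adjusted p = 0.0682) or library 2 (adjusted p = 0.0610), nor with the spread of the shMLKL libraries alone (adjusted p = 0.0559). Without shMLKL TBZ library 2, the lowest, it was -0.34 and still called. In shGFP cells UHRF1 had 1.63 and 1.34 FPKM with TBZ, against 4.56 and 4.62 FPKM with DMSO, and its mean fell by 67.6%. The difference there was -1.17 (SE 0.13, adjusted p = 0.000245).

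DNMT1, the maintenance methyltransferase that UHRF1 recruits, had 8.51 and 7.33 FPKM in shMLKL cells with TBZ, against 6.84 and 6.81 FPKM with DMSO, a difference of 0.18 that was not called (adjusted p = 0.0759) except without shMLKL TBZ library 2 (0.28, adjusted p = 0.0212). In shGFP cells it had 11.5 and 10.9 FPKM with TBZ, against 12.4 and 11.8 FPKM with DMSO. That difference of -0.10, with an interval of -0.27 to 0.06, was not called (adjusted p = 0.241). UHRF1 FPKM was 0.175 and 0.119 of DNMT1 FPKM in shMLKL cells with TBZ, against 0.316 and 0.313 with DMSO. The ratio in shGFP cells was 0.142 and 0.123 with TBZ, against 0.368 and 0.390 with DMSO.

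**Figure D3:**
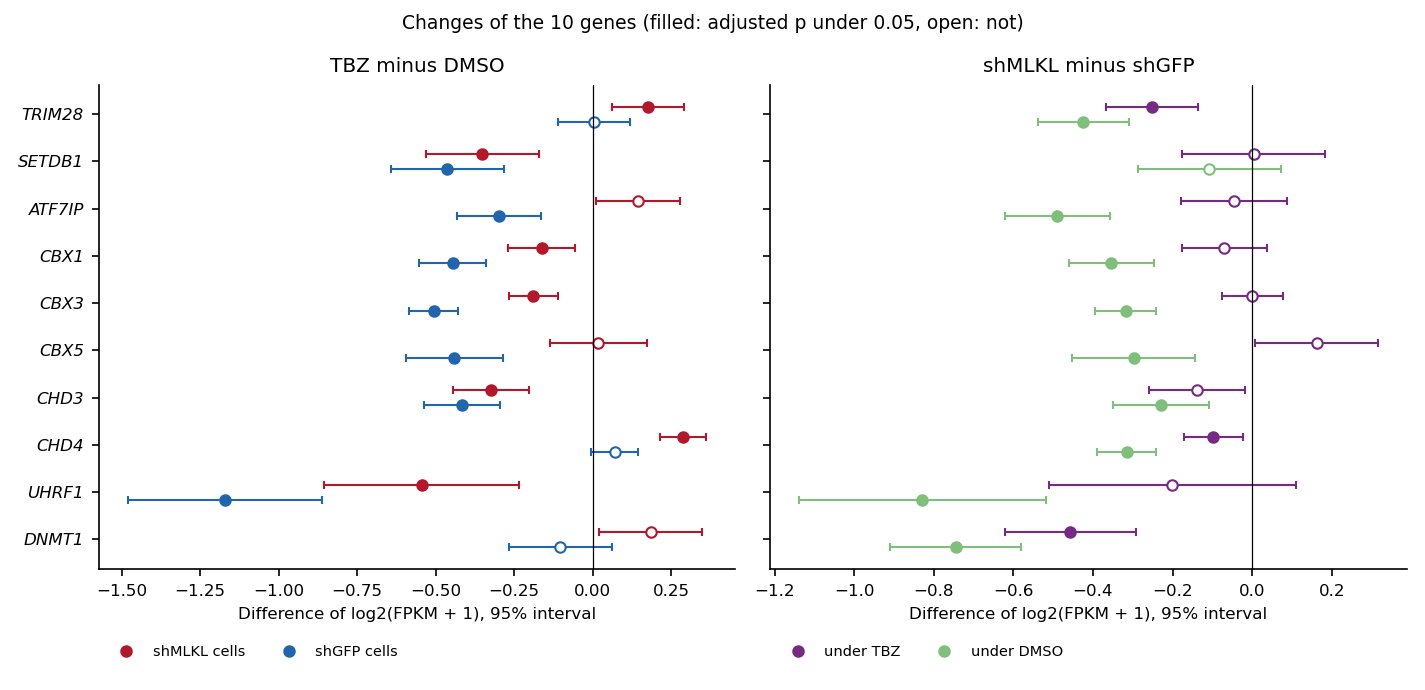
Differences of log2(FPKM + 1) with 95% intervals from limma, TBZ minus DMSO on the left (shMLKL cells above shGFP cells) and shMLKL minus shGFP on the right (TBZ above DMSO). Filled circles have an adjusted p under 0.05. On the left every shMLKL point lies to the right of the shGFP point of the same gene, from a gap of 0.09 for CHD3 to one of 0.63 for UHRF1. Over all 10364 genes tested this gap was below 0 for 3363.

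The TBZ effect was then compared between the lines. The effect in shMLKL cells minus that in shGFP cells was above 0 for 10 of the 10 genes. Most genes tested were above 0 too, with 3363 of 10364 below it. The median was 0.29 for the 10 genes and 0.10 over all genes tested. Of the 10 genes 5 were called higher, where 14.6% of all genes were called higher, 7.66% lower and 22.3% in either direction. The called genes were CBX5 (0.46, adjusted p = 0.0141), ATF7IP (0.44, adjusted p = 0.00906), CBX3 (0.32, adjusted p = 0.00371), CBX1 (0.28, adjusted p = 0.0207) and CHD4 (0.22, adjusted p = 0.0149). UHRF1, with a difference of 0.63 (SE 0.19), stood just outside the threshold (adjusted p = 0.0503). It was called without shMLKL TBZ library 2 (0.83, adjusted p = 0.0107), as was DNMT1 (0.38, adjusted p = 0.0291), and TRIM28 was called without shMLKL DMSO library 1 (0.24, adjusted p = 0.0439). The comparison depended on scaling: of the called genes 65.6% were higher, against 38.9% with library medians set equal and 50.8% with quantile normalization.

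With the medians set equal, 3 of the 10 genes were called: the calls of CHD4 (0.13, adjusted p = 0.123) and CBX1 (0.19, adjusted p = 0.0730) were lost, and the value of CHD3 turned to -0.00. The CBX1 call was also lost without shGFP DMSO library 2 (0.25), shGFP TBZ library 1 (0.29), shGFP TBZ library 2 (0.28), shMLKL DMSO library 2 (0.24) or shMLKL TBZ library 1 (0.25), at adjusted p between 0.0590 and 0.0681. The CBX5 call was lost without shGFP DMSO library 2 (0.44, adjusted p = 0.0534), where 3 of the 10 genes were called. Over all genes the count of calls, 2306, fell by more than 1.5 times without shGFP DMSO library 1 (1314), shGFP TBZ library 2 (1417), shGFP DMSO library 2 (1452), shGFP TBZ library 1 (1466) or shMLKL DMSO library 2 (1478).

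The lines differed already under DMSO, where shMLKL cells had less mRNA of 9 of the 10 genes than shGFP cells; 44.8% of all genes were called lower there, and 63.1% in either direction. The median difference was -0.34 for the 10 genes and -0.16 for all genes tested. UHRF1 was lowest relative to shGFP cells (-0.83, adjusted p = 0.00116), then DNMT1 (-0.74, adjusted p = 8.78e-05), ATF7IP (-0.49, adjusted p = 0.000243) and TRIM28 (-0.42, adjusted p = 0.000235). CBX1, CBX3, CHD4, CBX5 and CHD3 were lower by between 0.23 and 0.35, in CBX1 by 0.35 (adjusted p = 0.000410) and in CHD3 by 0.23 (adjusted p = 0.00598).

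SETDB1 had 10.5 and 11.8 FPKM in shMLKL cells and 11.5 and 12.6 FPKM in shGFP cells under DMSO, which overlapped (-0.11, adjusted p = 0.253). With library medians set equal the calls of CBX5 (-0.13, adjusted p = 0.147) and CHD3 (-0.06, adjusted p = 0.393) were lost, that of CHD3 also with quantile normalization (-0.12, adjusted p = 0.0996), and SETDB1 turned to 0.06 with medians set equal and to 0.00 with quantile normalization. Among all called genes 29% were higher in shMLKL cells, against 53.1% with medians set equal and 47.5% with quantile normalization.

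Under TBZ 3 of the 10 genes were lower in shMLKL cells, where 31.0% of all genes were called lower, 20.7% higher and 51.7% in either direction: DNMT1 (-0.46, adjusted p = 0.00134), TRIM28 (-0.25, adjusted p = 0.00408) and CHD4 (-0.10, adjusted p = 0.0351). CHD4 was not called with either other scaling (-0.02 and -0.04), nor without shGFP TBZ library 1 (-0.08), shGFP TBZ library 2 (-0.11), shMLKL TBZ library 1 (-0.09) or shMLKL TBZ library 2 (-0.10), nor with the replicate number as a block (adjusted p = 0.0511). CBX3 differed by 0.00, with an interval of -0.08 to 0.08. CBX5 was the one gene whose value was higher in shMLKL cells by more than 0.1 (0.16, adjusted p = 0.0753), and it was called with library medians set equal (0.24, adjusted p = 0.0212) and with quantile normalization (0.23, adjusted p = 0.0183).

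Leaving out a DMSO library changed the count in this TBZ comparison through the shared spread. Without shMLKL DMSO library 1 or library 2, 5 of the 10 genes were called, CBX5 (0.16, adjusted p = 0.0365 and 0.0376) and CHD3 (-0.14, adjusted p = 0.0434 and 0.0443) being the added ones. Without shMLKL TBZ library 1, UHRF1 was called lower (-0.41, adjusted p = 0.0198). Among all called genes 40.0% were higher in shMLKL cells under TBZ, against 54.6% with medians set equal and 52.1% with quantile normalization.

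Other genes of the same machinery were counted from lists chosen for their function. Their counts under TBZ stand against 20.0% of all genes called higher and 17.6% lower in shMLKL cells, and 19.1% higher and 37.3% lower in shGFP cells. Of 12 further NuRD subunits, 0 rose and 8 fell in shMLKL cells, and 0 rose and 11 fell in shGFP cells, with median differences of -0.17 in shMLKL cells and -0.29 in shGFP cells, against -0.00 and -0.12 over all genes in those lines. MTA3, a metastasis-associated subunit, had 5.87 and 6.27 FPKM in shMLKL cells with TBZ, against 10.8 and 11.3 FPKM with DMSO (-0.77, adjusted p = 6.74e-05). In shGFP cells MTA3 had 9.76 and 10.5 FPKM with TBZ, against 20.5 and 19.0 FPKM with DMSO (-0.90, adjusted p = 1.57e-05). Its relative MTA2 fell by 0.38 in shMLKL cells and by 0.49 in shGFP cells. The zinc finger subunit GATAD2A fell by 0.34 in shMLKL cells, and the histone chaperone RBBP4 fell by 0.43 in shGFP cells.

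Of 6 tested lysine 9 methyltransferase genes and partners, 1 rose and 3 fell in either line; in shGFP cells, with 19.1% of all genes higher and 37.3% lower, these counts of 6 are near the general share. SUV39H1, the heterochromatin methyltransferase, had 2.48 and 2.69 FPKM in shMLKL cells with TBZ, against 3.28 and 3.33 FPKM with DMSO (-0.26, adjusted p = 0.0207). In shGFP cells it had 1.67 and 1.80 FPKM with TBZ, against 4.15 and 3.93 FPKM with DMSO (-0.88, adjusted p = 3.81e-05). WIZ, a partner of the euchromatic methyltransferases, fell by 0.34 in shMLKL cells, and EHMT1, which encodes one of those enzymes, GLP, fell by 0.37 in shGFP cells. PRDM2 rose by 0.37 in both lines. Of 9 demethylase genes 2 rose and 2 fell in shMLKL cells, and 3 rose and 3 fell in shGFP cells. The paralogs KDM3B and KDM3A went apart: KDM3B fell by 0.53 in shMLKL cells and by 0.62 in shGFP cells, and KDM3A rose by 0.35 in shMLKL cells and by 0.43 in shGFP cells. PHF2, another demethylase gene, fell by 0.44 in shMLKL cells and by 0.36 in shGFP cells.

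Of 6 genes of the HUSH silencing complex and the MORC family with SAFB, 1 rose and 0 fell in shMLKL cells, and 1 rose and 3 fell in shGFP cells, beside the 20.0% higher and 17.6% lower of all genes in shMLKL cells and the 19.1% higher and 37.3% lower in shGFP cells. MORC3 rose by 0.17 in shMLKL cells and by 0.37 in shGFP cells, and the HUSH subunits PPHLN1 and MPHOSPH8 each fell by 0.29 in shGFP cells. Of 9 tested genes of DNA methylation and its readers, 2 rose and 1 fell in shMLKL cells, and 0 rose and 2 fell in shGFP cells. DNMT3A, a de novo methyltransferase, had 0.546 and 0.356 FPKM in shMLKL cells with TBZ, against 1.35 and 1.19 FPKM with DMSO (-0.65, adjusted p = 0.00254). In shGFP cells DNMT3A had 1.59 and 1.91 FPKM with TBZ, against 3.79 and 3.34 FPKM with DMSO (-0.73, adjusted p = 0.000833). In shMLKL cells the glycosylase gene MBD4 rose by 0.31 and USP7, whose product deubiquitinates UHRF1 and DNMT1, rose by 0.15. UHRF2, the paralog of UHRF1, fell by 0.28 in shGFP cells.

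Of 10 relatives of TRIM28 and histone chaperones, 3 rose and 1 fell in shMLKL cells, with TRIM24 up by 0.42, ASF1A by 0.33 and ASF1B by 0.28. There 20.0% of all genes were called higher and 17.6% lower. In shGFP cells 0 rose and 3 fell (TRIM66 by 0.50, CHAF1A by 0.36 and SMARCAD1 by 0.29). With 19.1% of all genes higher and 37.3% lower in shGFP cells, the 3 falls are near the general share. Of 18 germline genes that DNA methylation keeps silent, 2 reached the tested range and neither was called in any of the 5 comparisons.

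S phase genes fell beside UHRF1 in shGFP cells, while in shMLKL cells their counts were near the shares over all genes. Of 18 such genes, 4 rose and 2 fell under TBZ in shMLKL cells, with a median of 0.02. There 20.0% of all genes were called higher and 17.6% lower. In shGFP cells 1 rose and 11 fell, with a median of -0.38, where 19.1% of all genes were called higher and 37.3% lower. In the difference between the lines 9 were higher and 0 lower, where 14.6% of all genes were called higher and 7.66% lower. Under DMSO 1 was higher and 14 were lower in shMLKL cells, with a median of -0.66, where 18.3% of all genes were called higher and 44.8% lower. In shMLKL cells SLBP rose by 0.46, PCNA by 0.40 and CCNE2 by 0.31. The helicase subunit MCM2 had 9.92 and 10.03 FPKM in shGFP cells with TBZ, against 15.9 and 16.1 FPKM with DMSO (-0.63, adjusted p = 4.15e-05), MCM3 fell by 0.59 and MCM5 by 0.56. UHRF1 and DNMT1 are themselves expressed mostly in S phase, and the part of S phase genes in their differences was not tested.

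**Figure D4:**
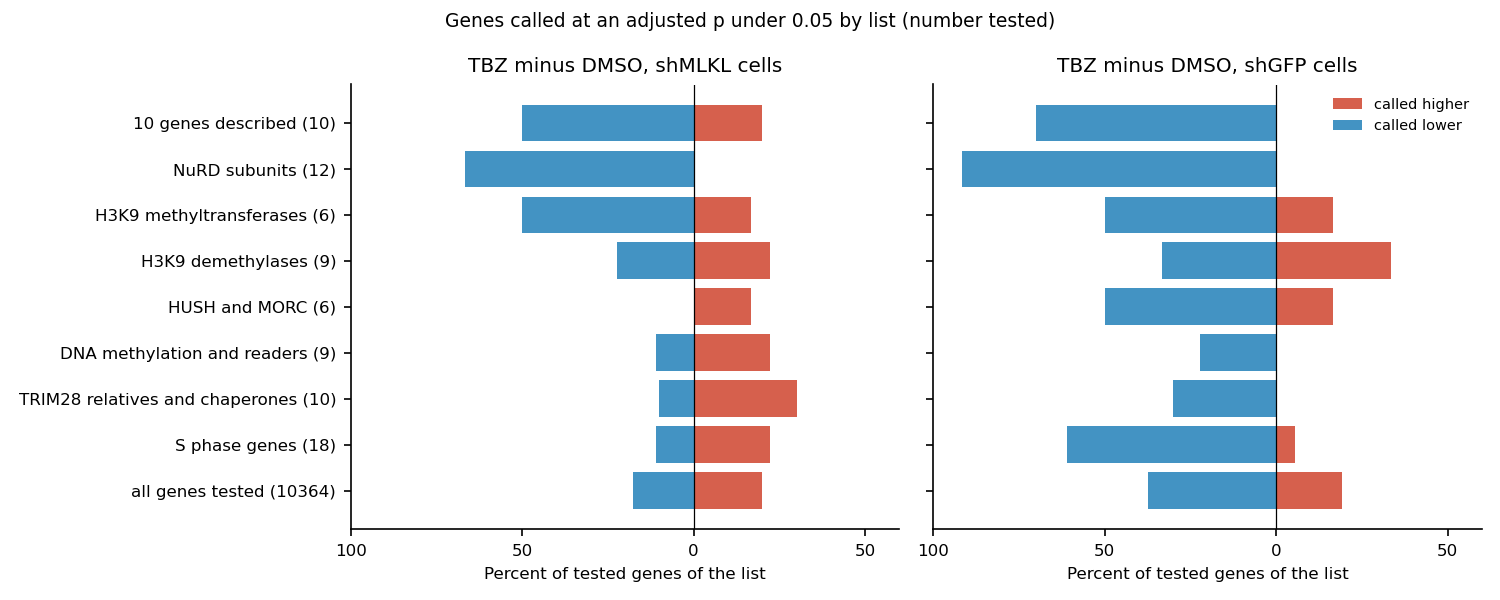
Percent of the tested genes of each list called higher (red, to the right) or lower (blue, to the left) with TBZ than with DMSO, shMLKL cells on the left and shGFP cells on the right, with the number tested in brackets. The other NuRD subunits had 8 of 12 lower in shMLKL cells and 11 of 12 in shGFP cells, and the S phase genes had 2 of 18 lower in shMLKL cells and 11 of 18 in shGFP cells.

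Profiles over the 8 libraries were compared by Pearson's r of log2(FPKM + 1) without a test, since the libraries share their groups. The profile of TRIM28 was most like those of RAB11FIP4, CTSO and C5orf30 (each r = 0.990 or above), and among the other 9 genes DNMT1 (r = 0.956, rank 161 of 10363) and CHD4 (r = 0.883, rank 866) were nearest and SETDB1 (r = -0.130) farthest. The profile of UHRF1 was most like those of ZNF8 (r = 0.992), ZNF343 and CLDN2 (both r = 0.988). CBX1 (r = 0.980, rank 22), CBX3 (r = 0.956, rank 191) and CHD3 (r = 0.937, rank 354) were nearest to UHRF1, DNMT1 was at 0.507, and CHD4 was farthest (r = -0.042).

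Start regions of the 10 genes were searched for short motifs. RefSeq windows of 250 bases before to 50 after the start (GRCh38.p14) were found for 9 of the 10 genes, the exception being TRIM28. These 9 genes had 19 windows in all. A gene with several windows can match in any of them, so counts of genes do not compare directly with shares of windows. Both strands were searched for the E2F-type octamers TTTCGCGC, TTTGGCGC, TTTCCCGC and TTTGCCGC, which 3.31% of all 35116 windows hold. They were found in CBX3, UHRF1 and DNMT1. Only windows that hold such an octamer are printed, and capitals mark it. The CBX3 window is chr7:26201193-26201492 on the plus strand, the UHRF1 windows are chr19:4909251-4909550 and chr19:4909894-4910193 on the plus strand, and the DNMT1 window is chr19:10194904-10195203 on the minus strand.
CBX3: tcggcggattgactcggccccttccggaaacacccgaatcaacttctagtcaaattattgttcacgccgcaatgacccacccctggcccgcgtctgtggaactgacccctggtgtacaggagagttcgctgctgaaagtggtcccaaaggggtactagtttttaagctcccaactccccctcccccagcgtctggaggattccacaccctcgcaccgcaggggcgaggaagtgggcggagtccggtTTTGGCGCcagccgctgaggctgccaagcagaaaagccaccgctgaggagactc
UHRF1, upstream start: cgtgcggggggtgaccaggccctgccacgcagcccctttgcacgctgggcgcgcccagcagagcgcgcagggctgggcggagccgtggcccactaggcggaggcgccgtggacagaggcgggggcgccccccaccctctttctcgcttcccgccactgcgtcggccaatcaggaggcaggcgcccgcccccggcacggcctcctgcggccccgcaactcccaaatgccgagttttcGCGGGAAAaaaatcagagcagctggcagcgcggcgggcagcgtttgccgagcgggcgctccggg
UHRF1, downstream start: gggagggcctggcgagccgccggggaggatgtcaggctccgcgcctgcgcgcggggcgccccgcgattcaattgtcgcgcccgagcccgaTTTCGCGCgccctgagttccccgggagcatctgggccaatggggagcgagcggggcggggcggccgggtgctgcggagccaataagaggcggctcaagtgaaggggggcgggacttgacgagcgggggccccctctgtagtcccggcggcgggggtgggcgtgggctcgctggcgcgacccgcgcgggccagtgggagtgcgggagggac
DNMT1: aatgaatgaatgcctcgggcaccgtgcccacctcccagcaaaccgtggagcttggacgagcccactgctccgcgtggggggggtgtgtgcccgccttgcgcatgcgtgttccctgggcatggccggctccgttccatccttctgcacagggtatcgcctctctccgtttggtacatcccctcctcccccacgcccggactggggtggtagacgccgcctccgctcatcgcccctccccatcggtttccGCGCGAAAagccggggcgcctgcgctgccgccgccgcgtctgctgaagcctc

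The octamer of CBX3 begins 4 bases before the start, those of UHRF1 14 and 160 bases before their starts, and that of DNMT1 2 bases before. The remaining UHRF1 window, and the windows of SETDB1, ATF7IP, CBX1, CBX5, CHD3 and CHD4, do not hold these letters. CBX3 and UHRF1 fell under TBZ in shGFP cells and DNMT1 was not called there. Of the genes whose windows lack the octamers, SETDB1, ATF7IP, CBX1, CBX5 and CHD3 fell there as well, and CHD4 was not called. The CCAAT box (CCAAT) was in windows of ATF7IP, CBX5 and UHRF1 and in 34.6% of all windows, and the GC box (GGGCGG) in windows of ATF7IP, CBX3, CBX5, CHD4 and UHRF1 and in 45.0% of all. The ETS-type letters CCGGAAG were in windows of SETDB1, CBX3 and CHD4 and in 10.3% of all. No window of the 9 genes held the CRE letters TGACGTCA, which are in 1.85% of all windows. These percents count windows and not genes, and the 9 genes had 19 windows. Of the 4 octamers 0 overlapped another motif searched, and a match is only a match of letters.

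CBX3 and CBX5 lie head to head with RNA-binding protein genes of the opposite strand in hg19, which were looked up after the values of CBX3 and CBX5 were known. HNRNPA2B1, 418 bases from CBX3, had 239 and 254 FPKM in shMLKL cells with TBZ, against 266 and 260 FPKM with DMSO, which was not called (-0.09, adjusted p = 0.0983) although CBX3 fell there. In shGFP cells it had 307 and 296 FPKM with TBZ, against 356 and 352 FPKM with DMSO (-0.23, adjusted p = 0.00165). Under TBZ it was lower in shMLKL than in shGFP cells (-0.29, adjusted p = 0.000685), where CBX3 differed by 0.00, and under DMSO both were lower in shMLKL cells, HNRNPA2B1 by 0.43 (adjusted p = 7.05e-05). HNRNPA1, 573 bases from CBX5, had 263 and 246 FPKM in shMLKL cells with TBZ, against 267 and 262 FPKM with DMSO (-0.06, adjusted p = 0.274). It had 212 and 206 FPKM in shGFP cells with TBZ, against 215 and 214 FPKM with DMSO (-0.04, adjusted p = 0.430). HNRNPA1 was higher in shMLKL cells than in shGFP cells under TBZ (0.28, adjusted p = 0.000832) and under DMSO (0.30, adjusted p = 0.000405), and CBX5 was lower there under DMSO.

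The first experiment had 1 library a group, so its values carry no test, and its transcript intervals are those Cufflinks gave, which do not cover the spread between cultures. Its annotation was hg19, where TRIM28 lies at chr19:59055836-59062082. Summed over RefSeq transcripts, UHRF1 had 1.38 FPKM in parental cells with TBZ for 4 h, against 4.93 FPKM with DMSO, and 2.15 FPKM in shMLKL cells with TBZ for 12 h, against 6.91 FPKM with DMSO. CBX3 had 86.9 FPKM in parental cells with TBZ against 126 FPKM with DMSO, and 99.4 FPKM in shMLKL cells with TBZ against 135 FPKM with DMSO. CBX5 had 3.99 FPKM in parental cells with TBZ against 7.10 FPKM with DMSO, and 3.79 FPKM in shMLKL cells with TBZ against 7.49 FPKM with DMSO. These 3 genes were lower with TBZ in both lines, and no assembled transcript was listed for them.

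Of the 9 genes with a value, 8 had a lower RefSeq sum with TBZ for 4 h in parental cells, where 63.0% of 10806 genes did. Of the 10 genes 9 were lower with TBZ for 12 h in shMLKL cells, where 58.1% did. The log2 ratios of FPKM + 1 had a median of -0.66 over the 9 genes at 4 h and -0.34 over the 10 genes at 12 h, against -0.21 and -0.12 over all genes. SETDB1 was listed at 0 in parental cells with TBZ on all 3 of its RefSeq transcripts, against 8.26 FPKM with DMSO. In that library 89 genes were listed at 0 that had at least 5 FPKM in the other 3, so the 0 can be a failed estimate, and no fold is given.

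Within genes the listed FPKM of the transcripts did not keep their proportions. CHD3 NM_001005271 had 4.33 FPKM in parental cells with TBZ (interval 3.97 to 4.70), against 13.01 FPKM with DMSO (12.3 to 13.8). NM_005852, from a later start, had 3.80 FPKM with TBZ (3.46 to 4.14), against 6.63 FPKM with DMSO (6.13 to 7.12). It was marked as without full read support in that TBZ library, which also listed an assembled CHD3 transcript at 2.21 FPKM. In shMLKL cells NM_005852 was listed at 0 with TBZ for 12 h, against 6.55 FPKM with DMSO. NM_001005273, from the same start, had 2.45 FPKM with TBZ there and was listed at 0 with DMSO. How reads were split between such similar transcripts was not tested. CBX5 NM_012117, from the distal start, had 2.88 FPKM in parental cells with TBZ (2.67 to 3.10), against 3.59 FPKM with DMSO (3.31 to 3.88). The inner-start CBX5 NM_001127321 had 1.10 FPKM with TBZ (0.966 to 1.24), against 2.68 FPKM with DMSO (2.43 to 2.92). In shMLKL cells the inner-start transcript had 0.867 FPKM with TBZ for 12 h, against 2.26 FPKM with DMSO, and NM_012117 had 2.92 FPKM with TBZ, against 5.23 FPKM with DMSO.

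UHRF1 had 2 transcripts above 0 in every library, both lower with TBZ: NM_001048201 had 0.590 FPKM and NM_001290051 0.792 FPKM in parental cells with TBZ, against 2.45 and 2.48 FPKM with DMSO. In shMLKL cells they had 0.681 and 1.47 FPKM with TBZ for 12 h, against 2.23 and 4.01 FPKM with DMSO. None of these intervals overlapped between TBZ and DMSO. Another transcript, NM_013282, had 0.672 FPKM (0.488 to 0.856) in shMLKL cells with DMSO and was listed at 0 in the other 3 libraries. DNMT1 NM_001379 had 3.28 FPKM in parental cells with TBZ (2.96 to 3.61), against 6.02 FPKM with DMSO (5.53 to 6.52). The RefSeq sum of DNMT1 was 4.51 FPKM in parental cells with TBZ against 7.68 FPKM with DMSO, and 9.45 FPKM in shMLKL cells with TBZ against 13.7 FPKM with DMSO. It was lower with TBZ in both lines of the first experiment, and was called in neither line of the second.

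For TRIM28, CHD4 and ATF7IP the RefSeq sum and the sum with assembled transcripts disagreed. TRIM28 NM_005762 had 75.8 FPKM in parental cells with TBZ (72.1 to 79.5), against 102 FPKM with DMSO (97.7 to 107). An assembled transcript that begins at 59055426 in the TBZ library and 59055221 in the DMSO library, upstream of the RefSeq start at 59055836, had 50.5 FPKM with TBZ (47.5 to 53.4), against 20.9 FPKM with DMSO (19.3 to 22.6). It shares 15 of its 16 introns with RefSeq in the TBZ library, and it made up 40.0% of TRIM28 FPKM there, against 17.0% with DMSO. Together the transcripts had 126 FPKM with TBZ and 123 FPKM with DMSO, so the log2 ratio was -0.43 for RefSeq alone and 0.03 for the sum. In shMLKL cells, with no assembled transcript, TRIM28 had 124 FPKM with TBZ for 12 h and 129 FPKM with DMSO.

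CHD4 had 59.2 FPKM on RefSeq transcripts in parental cells with TBZ, against 41.6 FPKM with DMSO, and with an assembled transcript present only with DMSO the sums were 59.2 and 62.2 FPKM. In shMLKL cells CHD4 had 46.5 FPKM on RefSeq transcripts with TBZ against 38.2 FPKM with DMSO, and 46.5 against 65.4 FPKM with the assembled one. ATF7IP had 2.71 FPKM on RefSeq transcripts in parental cells with TBZ against 3.74 FPKM with DMSO, and 3.91 against 3.74 FPKM with the assembled one. The direction of these 3 genes at 4 h thus depended on which transcripts were summed.

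**Figure D5:**
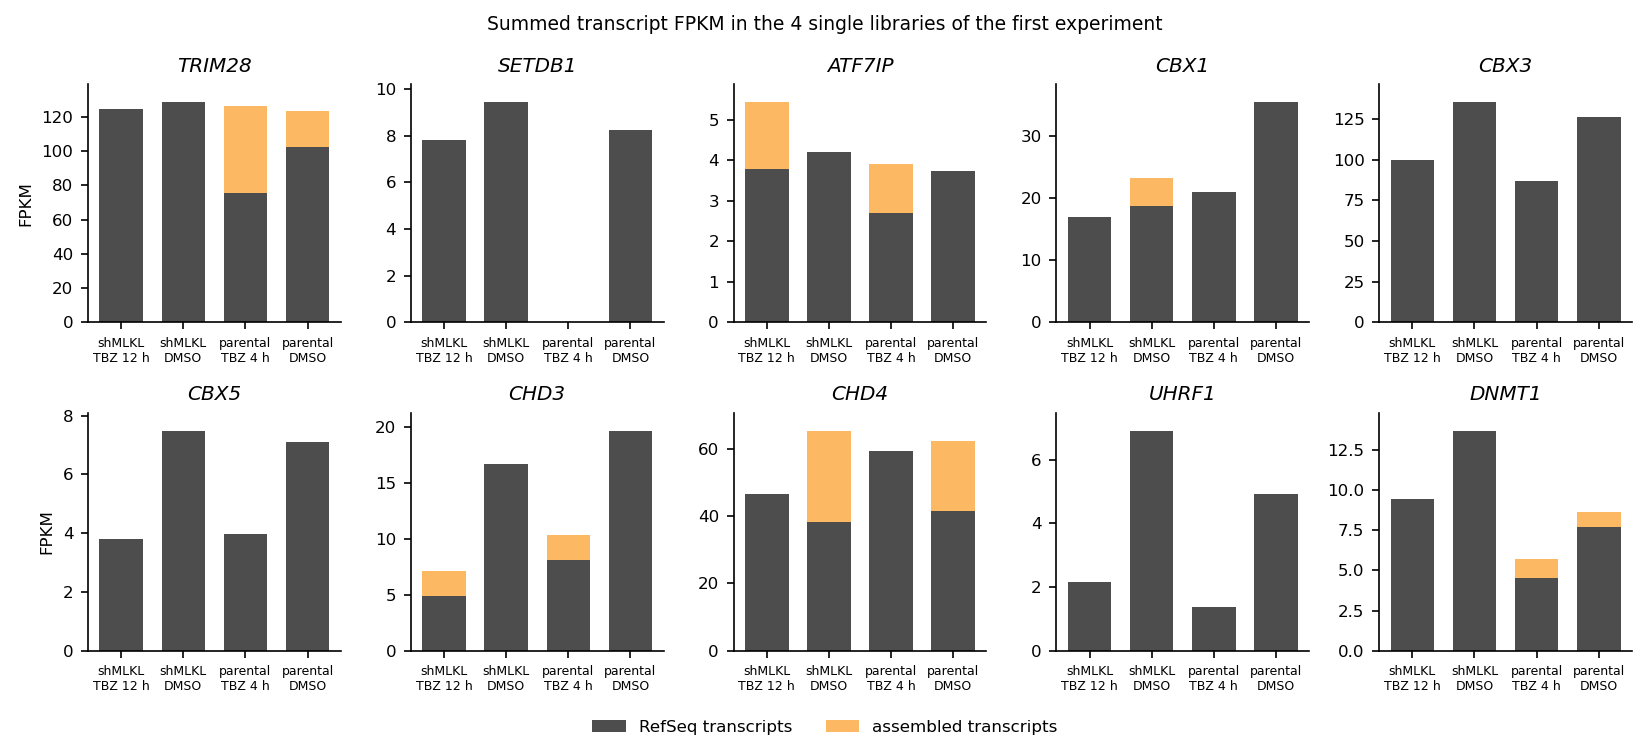
FPKM of the 10 genes in the 4 single libraries of the first experiment, with RefSeq transcripts in grey and assembled transcripts of the same gene stacked in orange. TRIM28 had 126 FPKM in all in parental cells with TBZ and 123 FPKM with DMSO, and UHRF1, CBX3 and CBX5 had no assembled part.

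Under DMSO the first experiment ordered the lines another way. Of the 10 genes 3 (CBX1, CHD3 and CHD4) had a lower RefSeq sum in shMLKL cells than in parental cells, where 43.8% of all genes did, and with assembled transcripts 2 did. DNMT1 had 13.7 FPKM in shMLKL cells and 7.68 FPKM in parental cells, and UHRF1 had 6.91 FPKM in shMLKL cells and 4.93 FPKM in parental cells. In the second experiment both were lower in shMLKL cells, beside shGFP cells in place of parental ones. CBX1 alone of the 10 was lower by more than 0.5 in shMLKL cells in the first experiment, with 18.8 FPKM against 35.5 FPKM in parental cells. MLKL had 0.854 FPKM in shMLKL cells and 6.31 FPKM in parental cells under DMSO, and 2.14 FPKM in shMLKL cells with TBZ for 12 h. The control line and the experiment cannot be told apart here.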

How the data were processed

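RNA from HT-29 cells was poly-A selected and sequenced as stranded libraries with 100 nt paired reads, per the labels' protocols. The submitters' processing notes name TopHat2 2.0.13, Cufflinks 2.2.1, STAR 2.4.0f1, GATK and hg19, with no role or order. The authors deposited a gene table for 8 libraries, whose header names no unit: the values were taken as FPKM, deposited without counts, so the depth is known only relative to the deepest library. For the first experiment they deposited Cufflinks transcript files with FPKM and an interval per transcript, in coordinates taken as hg19 per the submitters' processing notes.

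Of 29437 lines the one with the highest mean was kept per symbol (199 symbols had distinct lines, none of them among the 10 genes). limma 3.58.1 in R 4.3.3 was fitted to log2(FPKM + 1) as group means over 8 libraries, with a trended variance, on the 10364 genes averaging 1 FPKM or more in some group, giving 5 two-sided comparisons (4 residual and 3.46 prior degrees of freedom). A pseudocount of 1 understates changes of low genes, UHRF1 above all. On simulated data for TBZ in shGFP cells the fit recovered 59.4% of falls of 0.5, 67.4% of rises of 0.5, 93.4% of falls of 1 and 95.8% of rises of 1 in 10 runs over 10364 genes, with 2.4 false calls a run. Only 200 genes were changed per run, whereas 56.4% of the real genes were called there. These rates therefore do not carry over to the real comparison. For 2 libraries against 2 an exact permutation test cannot go below 0.333. RefSeq transcripts were matched to symbols by accession. The genes and lists were chosen with earlier results of these data known. Of each other list up to 3 called genes with the largest change per TBZ comparison are named. A further list is not reported here. Same-numbered libraries did not deviate together (correlations from -0.066 to 0.028). Alternatives were the pseudocount, the filter, 2 other scalings, summed lines, a replicate block, the spread of the compared groups alone, and leaving out each library.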

Additional observations from a re-analysis of the deposited data

Results flagged for a closer look

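The TBZ effect differed between the lines, by the test of the difference itself, for 5 of the 10 genes. The effect in shMLKL cells minus that in shGFP cells was 0.44 for ATF7IP, 0.28 for CBX1, 0.32 for CBX3, 0.46 for CBX5 and 0.22 for CHD4, in log2(FPKM + 1). In shMLKL cells the TBZ libraries of ATF7IP and CHD4 were above the DMSO libraries, those of CBX1 and CBX3 below, and those of CBX5 overlapped. Of all genes tested 22.3% were called different between the lines. With library medians set equal, the calls of CHD4 (0.13, adjusted p = 0.123) and CBX1 (0.19, adjusted p = 0.0730) were lost. Groups of 2 libraries are too small to look for single outlying libraries.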

How the results depend on the processing

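Of 50 log2 changes (10 genes in 5 comparisons), 24 kept direction and side of the threshold under every alternative run, among them the 7 falls in shGFP cells; UHRF1 did not pass the filter at a mean of 5 FPKM. With library medians set equal, directions turned for CBX5 in shMLKL cells under TBZ (-0.0098), CHD3 in the difference between the lines (-0.0013), SETDB1 between the lines under DMSO (0.062), and ATF7IP (0.030) and CBX1 (0.0074) between the lines under TBZ, and 3 of the 10 genes were called in the difference. With quantile normalization they turned for TRIM28 in shGFP cells (-0.052), CBX5 in shMLKL cells (-0.00036), SETDB1 under DMSO (0.0031), and ATF7IP (0.030) and CBX3 (-0.014) between the lines under TBZ. With the spread of the compared groups alone, 4 of the 10 genes were called in shMLKL cells.

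Leaving out 1 library at a time, 1314 to 1690 genes and 3 to 7 of the 10 were called in the difference, 4 to 7 of the 10 in shMLKL cells, and 2 to 5 between the lines under TBZ. Values then ranged from -0.027 to 0.036 for TRIM28 in shGFP cells and from -0.070 to 0.11 for CBX5 in shMLKL cells. Between the lines under TBZ they ranged from -0.063 to 0.071 for SETDB1, from -0.032 to 0.033 for CBX3 and from -0.41 to 0.0047 for UHRF1. A lone library left in a group is assumed to vary like the others.

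With the replicate number as a block, the difference of UHRF1 between the lines was called (0.63, adjusted p = 0.0443) and CHD4 between the lines under TBZ was not (-0.10, adjusted p = 0.0511). No other call of the 10 genes changed with the block. The labels do not say what the replicate number marks, so whether it pairs the libraries is not known.

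In the first experiment at 4 h, adding assembled transcripts, chosen after seeing the data, turned TRIM28 (0.033), ATF7IP (0.049) and CHD4 (-0.068), and the highest RefSeq transcript alone turned ATF7IP (0.012). At 12 h medians set equal turned TRIM28 (0.069), added assembled transcripts turned ATF7IP (0.31) and CHD4 (-0.48), and the highest RefSeq transcript alone turned CHD4 (-0.40). The causes were not tested.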
